A study of Mus musculus with 8 samples.

Results

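Bone morphogenetic protein (BMP) and transforming growth factor beta (TGF-beta) signalling was followed through 40 genes in embryonic mouse hearts with and without the gene for dopamine beta-hydroxylase (Dbh). The genes were chosen by name for their place in the pathway, as 12 ligands, 11 receptors, 7 Smads, 4 Id targets and 6 inhibitors and binding proteins. All 40 were found on the array, through 67 of its 22690 probe sets, where a probe set is the group of short probes that reads 1 transcript or a part of it. They make up 40 of the 12394 genes that the array annotation names.

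In this pathway a secreted ligand brings together type I and type II receptors on the cell surface, which then phosphorylate Smad proteins in the cell. BMP receptors act mainly on Smad1 and Smad5, while TGF-beta and activin receptors act mainly on Smad2 and Smad3, and both kinds enter the nucleus with Smad4. In the embryonic heart, BMP signals help to specify muscle cells and to keep the myocardium growing, and BMP and TGF-beta ligands from the myocardium induce endocardial cells to form the mesenchyme of the valve cushions.

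The hearts came from mouse embryos at E10.5. The WT group held 4 Dbh+/+ hearts and the KO group 4 Dbh-/- hearts, which cannot turn dopamine into noradrenaline. The embryos of both groups were matched for age and size and examined by ultrasound just before the hearts were taken, no treatment is named, and how the Dbh allele was made is not given in the sources used here. Total RNA of each heart was hybridised to its own Affymetrix Mouse 430A 2.0 array, so each replicate is 1 embryo, and a value per array is a MAS5 signal, a brightness on a linear scale. The labels call each sample a heart, and all 10 cardiomyocyte markers examined, such as Tnnt2 and Myh7, were called Present (detected by the array software) on all 8 arrays. Each array read whole-organ RNA, so fewer cells of a type and less RNA per cell cannot be told apart in any value below.

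Several facts about the arrays touch the results. The Dbh probe set was called Present on 0 of the 8 arrays, with signals from 0.605 to 10.9 in WT and from 0.222 to 6.305 in KO, so the genotype labels could not be checked by it. In the sample titles WT 3, WT 4, KO 3 and KO 4 have the number 541, WT 2, KO 1 and KO 2 have 569, and WT 1 has 570, with no meaning stated. Median signals ran from 38.4 in KO 1 to 64.1 in KO 3, and values below are as deposited unless quantile normalization, which gives every array the same spread of signals, is named. WT 3, KO 3 and KO 4 stood apart. Their summed signal of 7 neural crest and neuronal markers was 1617, 1664 and 1507, against 65.2 to 272 in the other 5 hearts, although none of the 7 was Present on all 8 arrays and Foxd3 was Present on none. Most of that sum was Crabp1, at 1283, 1163 and 1074. The neuronal genes of the list did not share the pattern, since Tubb3 was lowest in WT 3, at 10.8, and Nefm was high in KO 3 and KO 4, at 67.2 and 95.3, but not in WT 3, at 10.8. WT 3 also had a summed liver and endoderm signal of 9640, against 70.7 to 186 elsewhere, and the 5′ to 3′ ratio of the Actb control, a measure of how complete the RNA is, was 0.407, 0.390 and 0.401 in WT 3, KO 3 and KO 4 against 0.483 to 0.527 in the others.

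Most of the pathway was detected in these hearts. Of the 40 genes, 26 had a probe set called Present on all 8 arrays. That held for all 4 Id targets, 9 of the 11 receptors, 5 of the 7 Smads, 6 of the 12 ligands and 2 of the 6 inhibitors and binding proteins. Bmp10, a BMP of trabecular heart muscle, Acvrl1, a type I receptor of endothelium, and Chrd, the secreted BMP antagonist chordin, were Present on none, with signals of 0.516 to 6.65, 1.26 to 17.4 and 0.399 to 15.8. Nog, the antagonist noggin, and Gdf3, a ligand of the early embryo, were Present on 1 array each, and Bmpr1b, a type I BMP receptor, on 2. A call of Absent says that these probes were not above background, not that the gene is silent. These 6 genes fell below the filter, which asked for Present on at least 3 of the 8 arrays, and the other 34 were tested, each through its brightest tested probe set.

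The first comparison asked whether these genes differ with the Dbh genotype. No pathway gene passed the test. Of the 34 genes tested, 0 were called for KO minus WT at an adjusted p under 0.05 (limma, Benjamini-Hochberg over all 16292 tested probe sets), where the share over all 9126 tested genes was 0%, and the smallest adjusted p among the 34 was 1.0. An unadjusted p under 0.05 was found for 0 of the 34 genes and for 131 of 9126, or 1.44%, and an unequal-variance test on linear signals called 0 of the 34 after the same adjustment. The signals of KO and WT hearts did not overlap for 0 of the 34 genes and for 0.34% of all tested genes. The difference was positive, that is higher in KO, for 13 genes and negative for 21, with a median of -0.09 log2 units against 0.02 over all tested genes. It ran from -0.45 for Tgfbr3 to 0.38 for Bmp4.

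What the 4 hearts per group could exclude was limited. For 30 of the 34 genes the 95% confidence interval of the KO minus WT difference lay within 1 log2 unit, or 2-fold on the signal + 16 scale, in either direction. The exceptions were Bmp2, Bmp4, Id1 and Tgfbr3, and the median interval reached 0.57 log2 units to either side. For a signal below 16, even a complete loss moves this scale by less than 1 log2 unit. Smad3, Inhba, Fst and Grem1 had WT means of 11.4, 11.2, 13.7 and 12.8, so for these genes the interval does not exclude a 2-fold change in signal. Bmp6 and Inhbb had WT means of 24.6 and 26.6, and their intervals do not exclude a 2-fold fall in signal. Between the lowest and the highest heart, whatever the genotype, signals of a gene differed 1.59-fold to 8.05-fold, with a median of 2.38-fold.

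**Figure D1:**
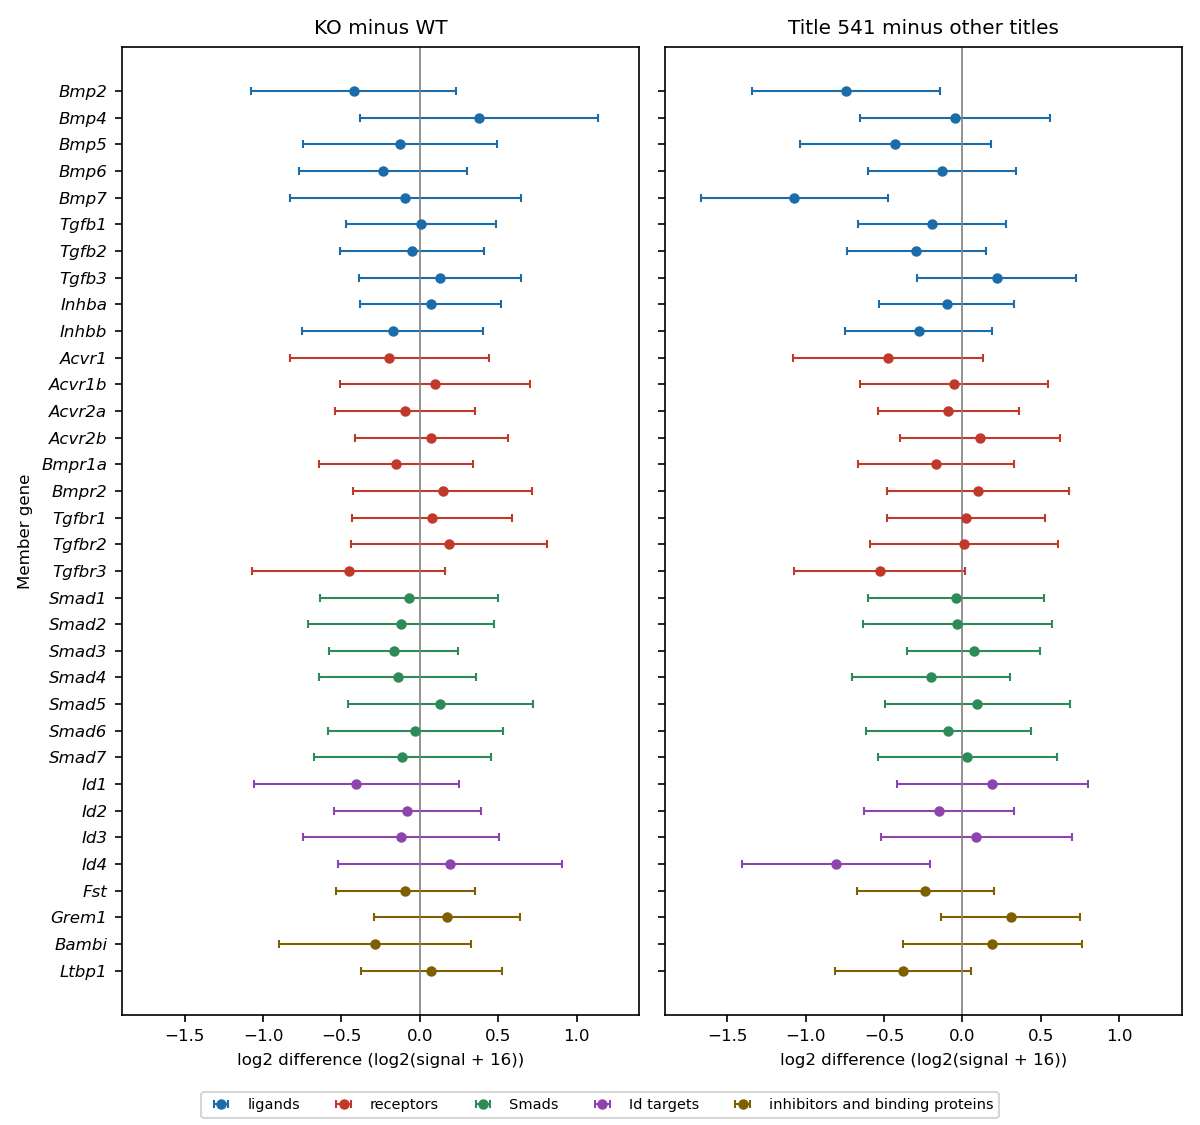
The 34 tested genes, grouped by role, with the log2 difference on the log2(signal + 16) scale on the horizontal axis for KO minus WT (left) and for the hearts with title number 541 minus the others (right). Points are limma estimates and bars are 95% confidence intervals; every bar on the left crosses 0, and on the right the bars of Bmp2, Bmp7 and Id4 lie wholly below 0.

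Among the ligands, 4 of the 10 tested were higher and 6 lower in KO, with none called and a median of -0.07. Bmp2, which in the heart comes from the muscle of the atrioventricular canal and drives cushion formation, had signals of 408, 368, 255 and 322 in WT 1 to WT 4 and of 319.8, 411, 213 and 125 in KO 1 to KO 4. The WT mean was 338 ± 65.3 and the KO mean 267 ± 125 (SD over 4 hearts, as in all means below), and the difference of -0.42 ± 0.32 log2 units (SE, limma adjusted p = 1.0) did not exceed the spread. KO 3 and KO 4 were the 2 lowest hearts, KO 2 was the highest, and without WT 3, KO 3 and KO 4 the difference was -0.01.

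Bmp4, a BMP of the outflow tract and the second heart field, had the highest positive difference. Its signals were 223, 189, 193 and 47.3 in WT and 86.1, 218, 331 and 207 in KO. The WT group held 3 hearts close together and WT 4 far below them, while the KO hearts spread on both sides. The means were 163 ± 78.6 and 210.4 ± 100.1, the difference was 0.38 ± 0.37 (SE, limma adjusted p = 1.0), and without WT 4 it was -0.07. The direction thus rests on WT 4, whose summed hypoxia-induced signal was also the highest, 14127 against 7040 to 11908 in the others. Its sums of neural crest and neuronal, branchial arch and skeletal muscle, and cushion mesenchyme markers were the lowest, at 65.2, 160 and 6594. KO 1, the next lowest heart for Bmp4, was also next lowest for these sums, at 88.3, 199.5 and 6866. The part of any of these sums in the Bmp4 values was not tested.

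Bmp5 and Bmp7, relatives with overlapping roles in heart muscle and cushions, and Bmp6, a ligand of cushions and outflow tract, showed no difference by genotype beyond the spread. Bmp5 had 193, 211, 114 and 208 in WT and 175, 215, 162 and 108 in KO. Bmp7 had 609, 399, 146 and 380.4 in WT and 423, 554, 269 and 165 in KO, so the lowest value of each group was a heart with number 541. Bmp6, a dim transcript, had 26.7, 21.1, 14.01 and 36.7 in WT and 6.73, 44.0, 13.9 and 15.7 in KO, and both the lowest and the highest heart were KO.

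Of the TGF-beta ligands, Tgfb2, whose loss in mice causes heart defects, had signals of 2838, 2531, 2458 and 1603 in WT and of 1920.0, 2897, 2506 and 1771 in KO. The means of 2357 ± 529 and 2273 ± 523 differed by -0.05 ± 0.23 log2 units (SE), and the 2 groups spanned nearly the same range. Tgfb1, which is made in endothelium, had means of 21.4 ± 8.65 in WT and 20.7 ± 2.23 in KO, with WT 4 at 8.79 the lowest heart. Tgfb3 had 30.7 ± 8.54 and 35.4 ± 11.2. The activin subunits Inhba and Inhbb were near the lower end of the array, with 3.53 to 16.9 and 7.01 to 56.4 over the 8 hearts. The highest Inhbb value was WT 4, which was the lowest heart for Bmp4.

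**Figure D2:**
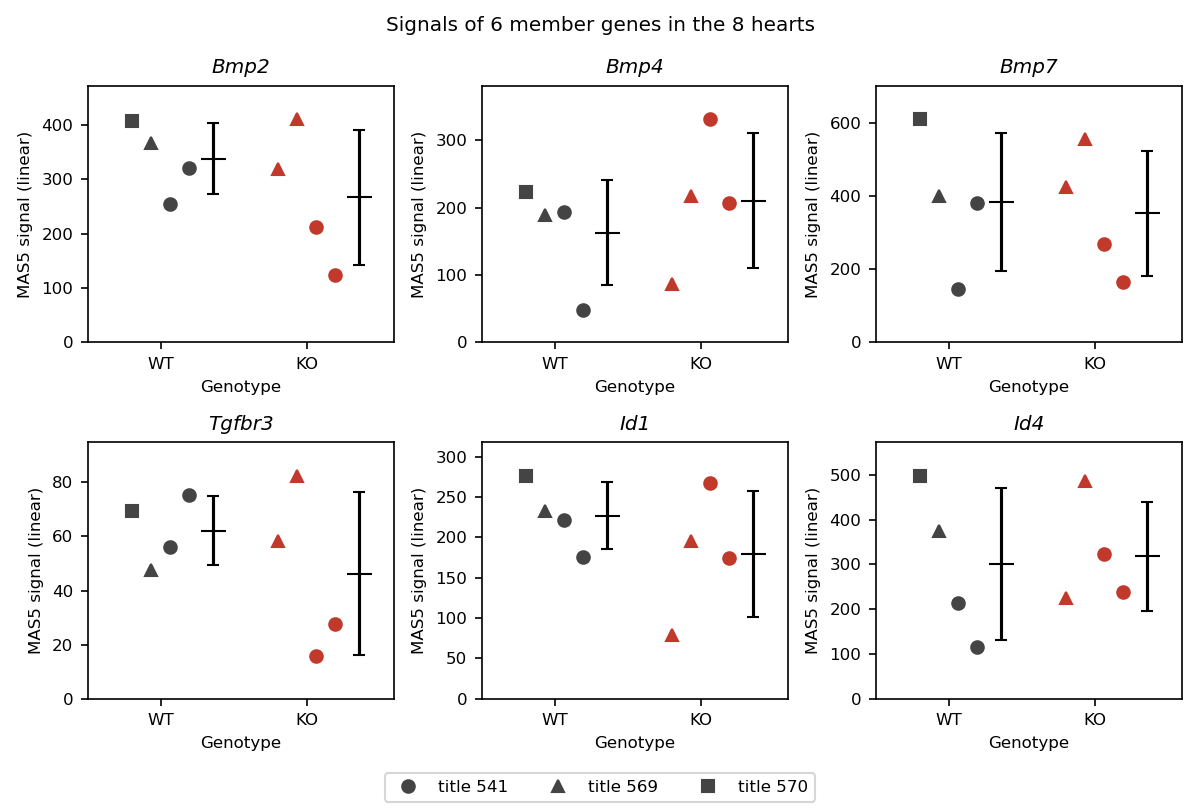
MAS5 signals of 6 pathway genes in each of the 8 hearts, WT and KO apart, with marker shapes for the title number and bars for the group mean ± SD (n = 4). Bmp4 shows WT 4 at 47.3 below every other heart, and Bmp7 shows WT 3, KO 3 and KO 4 at 146, 269 and 165 below the other 5 hearts.

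Among the receptors, 5 of the 9 tested were higher and 4 lower in KO, with none called and a median of 0.07. Acvr2a, a type II receptor for activins and BMPs, had signals of 2818, 1898, 2167 and 2288 in WT and of 1921, 2561, 2477 and 1668 in KO, and the groups overlapped. Bmpr1a, the type I BMP receptor that heart muscle and cushions need in mice, had 1463, 1262, 1228 and 1445 in WT and 1118, 1623, 1265 and 932 in KO. KO held both the highest and the lowest heart, and the difference was -0.15 ± 0.24 log2 units (SE).

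Tgfbr3, or betaglycan, a coreceptor that presents TGF-beta2 to its receptors, had the smallest p of the 34 genes. Its signals were 69.5, 47.7, 56.2 and 75.4 in WT and 58.5, 82.5, 15.9 and 27.7 in KO. KO 3 and KO 4 were low, while KO 1 lay within the WT range and KO 2 above it. The means were 62.2 ± 12.6 and 46.1 ± 30.2, and the difference of -0.45 ± 0.30 (SE, limma adjusted p = 1.0) became 0.11 without WT 3, KO 3 and KO 4.

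The other receptors did not differ beyond the spread between hearts. By the brightest probe set, differences lay between -0.19 and 0.19 log2 units for Acvr1 and Acvr1b (type I), Acvr2b, Bmpr2 and Tgfbr2 (type II) and Tgfbr1 (type I), with standard errors of 0.24 to 0.31. The second tested Acvr1 probe set, 1416786_at, differed by -0.42 ± 0.29. The dimmer Tgfbr1 probe sets, 1420894_at and 1420893_a_at, differed by -0.24 ± 0.31 and -0.25 ± 0.20, and none of these was called. Acvr2b, for example, had means of 30.9 ± 2.70 in WT and 33.7 ± 7.31 in KO, and Tgfbr1 had 1194 ± 272 and 1260.0 ± 271. The second Acvr2a probe set, 1451004_at, was the only 1 of the 67 with a p under 0.05 in the authors' deposited table, which gives a fold of 1.33, WT over KO, and a p of 0.0373. There, 282 of all 22690 probe sets had a p under 0.05. In the limma fit this probe set differed by -0.33 ± 0.27 log2 units (SE), and the brighter 1437382_at by -0.10 ± 0.22.

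Among the Smads, 1 of the 7 was higher and 6 were lower in KO, with none called and a median of -0.11. Smad4, the shared partner of the receptor-activated Smads, had signals of 1510.4, 1218, 1108 and 1199 in WT and of 1093, 1318, 1368 and 832 in KO. Smad1, a BMP-activated Smad, had 803, 478, 707 and 579 in WT and 550.3, 716, 732 and 448 in KO. The groups overlapped for both genes, and the lowest heart of each was KO 4. Smad5, also BMP-activated, was the gene with the positive difference, 0.13 ± 0.29 (SE), with means of 369 ± 97.4 in WT and 400.0 ± 71.3 in KO. Smad2 and Smad3, the TGF-beta-activated pair, had differences of -0.12 ± 0.29 and -0.17 ± 0.20, and Smad3 was dim, at 6.16 to 15.2 over the 8 hearts. Its probe set was Present on all 4 WT arrays and Absent on all 4 KO arrays, so it entered the test only through the group with the higher mean, and the signals of the groups overlapped.

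Smad6 and Smad7 inhibit the pathway and are themselves induced by it. Smad6 had 42.2 ± 17.9 in WT and 40.8 ± 14.6 in KO, a difference of -0.03 ± 0.27 log2 units (SE). Smad7 had 621, 421, 600.3 and 583 in WT and 423, 674, 462 and 504 in KO. WT 2 was the lowest heart, level with KO 1, and the difference was -0.11 ± 0.28.

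Id1 to Id4 code for helix-loop-helix proteins that block the DNA binding of differentiation factors, and BMP-activated Smads are known to induce them directly. The promoter windows of Id2, Id3 and Id4 are shown, with that of Id1 not analysed here, because these genes are the read-out of the pathway nearest to the Smads. The windows are the 250 bases before the gene's start, 5′ to 3′ on the gene's strand, from RefSeq on GRCm38.p6, and lie upstream of the transcribed exons. Capitals mark GGCGCC, a motif bound by BMP-activated Smads, or CAGAC and its reverse complement GTCTG, which hold the core letters that Smads bind. Id2 lies on the minus strand, in the window chr12:25096093-25096342, Id3 on the plus strand, in chr4:136143572-136143821, and Id4 on the plus strand, in chr13:48260866-48261115.
Id2: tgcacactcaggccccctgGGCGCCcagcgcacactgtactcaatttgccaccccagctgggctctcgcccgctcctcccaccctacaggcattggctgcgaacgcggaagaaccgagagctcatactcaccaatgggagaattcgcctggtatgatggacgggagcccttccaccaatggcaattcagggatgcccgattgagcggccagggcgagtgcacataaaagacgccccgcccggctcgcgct
Id3: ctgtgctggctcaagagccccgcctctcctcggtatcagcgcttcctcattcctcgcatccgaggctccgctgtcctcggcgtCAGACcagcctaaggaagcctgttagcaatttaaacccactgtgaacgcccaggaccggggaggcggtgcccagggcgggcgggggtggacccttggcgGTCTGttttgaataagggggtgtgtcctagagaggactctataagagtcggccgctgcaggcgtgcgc
Id4: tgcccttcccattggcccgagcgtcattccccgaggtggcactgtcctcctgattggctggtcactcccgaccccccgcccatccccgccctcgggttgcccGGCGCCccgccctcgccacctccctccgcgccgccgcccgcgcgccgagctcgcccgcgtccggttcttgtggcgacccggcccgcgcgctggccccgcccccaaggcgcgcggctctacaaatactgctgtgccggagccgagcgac
Id2 and Id4 each held 1 GGCGCC, and Id3 held CAGAC and GTCTG once each. Searched on both strands, GGCGCC was in 8 of the 33 windows that 27 of the 40 pathway genes matched, or 24.2%, and in 9.59% of all 32851 windows, while CAGAC or GTCTG was in 42.4% and 42.2%. The matches to GGCGCC were in Id2, Id4, Smad5, Bmpr1a, Bmpr2, Tgfbr1, Chrd and Grem1. A match is a description of letters, and binding was not measured.

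The Id genes did not differ by genotype beyond the spread, with 1 higher and 3 lower in KO, none called, and a median of -0.10. Id1 had signals of 276, 233, 222 and 175 in WT and of 78.2, 195, 268 and 174 in KO. KO 1 was far below the other hearts, and the remaining KO hearts lay among the WT hearts or, for KO 4, just below them. The means were 227 ± 41.4 and 179 ± 78.0, the difference was -0.41 ± 0.32 (SE, limma adjusted p = 1.0), and it was -0.09 without KO 1. Within the hearts numbered 541 it was 0.12, and within the others -0.94. Id2, whose promoter is printed above, had 1939, 1518, 1719 and 1413 in WT and 1435, 1867, 1751 and 1216 in KO, the narrowest relative range of the 34 genes (1.59-fold). Id3 had 269, 208, 283 and 152 in WT and 153, 208, 313 and 171 in KO, and the groups covered nearly the same range.

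Id4 was more variable, with 498, 374, 214 and 115 in WT and 224, 486, 323 and 237 in KO. The lowest and the highest heart were both WT, and the means of 300.3 ± 169 in WT and 317 ± 121 in KO differed by 0.19 ± 0.35 log2 units (SE).

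The inhibitors and binding proteins were split 2 and 2 between genotypes, with none called and a median of -0.01. Bambi, a decoy receptor that lacks a kinase and is itself induced by BMP, had signals of 575, 720.3, 624 and 447 in WT and of 268, 526, 762 and 476 in KO. KO 1 was the lowest heart here as for Id1, and KO 3 the highest, so that the difference was -0.28 ± 0.30 (SE, limma adjusted p = 1.0). Ltbp1, which holds latent TGF-beta in the matrix, had 3275, 2363, 2086 and 2285 in WT and 2579.5, 3463, 2756 and 1834 in KO, with means of 2502 ± 528 and 2658 ± 669.

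Grem1, the BMP antagonist gremlin, was dim, at 10.53, 15.9, 11.5 and 13.2 in WT and 13.7, 6.43, 27.2 and 22.1 in KO. KO 3 and KO 4 were the highest hearts and KO 2 the lowest. The difference of 0.17 ± 0.23 log2 units (SE) was -0.18 without WT 3, KO 3 and KO 4. Fst, or follistatin, which binds activins, had 13.7 ± 3.72 in WT and 12.03 ± 5.43 in KO.

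Whether the genotype difference was the same in hearts of both title groups was examined after the values were seen, with the interaction of genotype and title number in limma. For Bmp4 the KO minus WT difference was 1.27 in the 541 hearts, where WT 4 lies, and -0.52 in the others. The interaction of 1.79 log2 units had an adjusted p of 0.58. For Tgfbr3 the values were -1.12 and 0.22, an interaction of -1.34 with an adjusted p of 1.0. None of the 34 genes was called for the interaction, where 70 of 16292 probe sets were called as deposited and 1 after quantile normalization.

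The second comparison set the 4 hearts with title number 541 against the 4 numbered 569 or 570, with genotype as a covariate, since each side holds 2 WT and 2 KO hearts. Bmp7 was lower in the 541 hearts, with a difference of -1.07 ± 0.30 log2 units (SE, limma adjusted p = 0.020), and was the single pathway gene called, 1 of 34, where 3.55% of all 9126 tested genes were called. The 4 signals of the 541 hearts, 146 to 380.4 with a mean of 240.2 ± 108 (SD, n = 4), did not overlap with the 399 to 609 of the other hearts, with a mean of 496 ± 101. Groups did not overlap in this way for 1 of the 34 genes and for 4.87% of all tested genes. Both shares of the pathway genes thus lay near those of all genes.

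The Bmp7 call depended on the scaling. After quantile normalization WT 4, at 466, lay among the hearts with other numbers, which had 433 to 523, and the difference of -0.99 ± 0.29 had an adjusted p of 0.089. The low Bmp7 hearts were WT 3, KO 3 and KO 4, at 139.9, 217 and 204 on that scale, and without WT 3 alone the adjusted p as deposited was 0.49. The limma fit of this comparison gave every probe set the spread of its brightness class and no weight to its own (infinite prior degrees of freedom). The 2 dimmer Bmp7 probe sets, 1418910_at and 1432410_a_at, had differences in the same direction, -0.49 ± 0.29 and -0.60 ± 0.24 (SE), with adjusted p of 0.59 and 0.21.

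Bmp2 and Id4 had an unadjusted p under 0.05 but were not called. Bmp2 had means of 229 ± 82.5 in the 541 hearts and 376 ± 42.5 in the others, with WT 4, at 322, just above KO 1, at 319.8, and a difference of -0.74 ± 0.31 log2 units (SE, limma adjusted p = 0.25). Id4 had 222 ± 85.3 and 395 ± 127, a difference of -0.81 ± 0.31 (adjusted p = 0.17). Among the 541 hearts its order was unlike that of Bmp7, with WT 4 the lowest at 115 and KO 3 the highest at 323. The other 2 Id4 probe sets had differences of -0.42 ± 0.29 and -0.40 ± 0.24.

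Next came Tgfbr3, Ltbp1 and Acvr1, a type I BMP receptor also called ALK2, with -0.53 ± 0.28, -0.38 ± 0.22 and -0.47 ± 0.31 log2 units and limma adjusted p of 0.48 to 0.66. Acvr1 had signals of 237, 135, 153 and 179 in WT and of 167, 249.7, 113 and 101 in KO. Its second tested probe set, 1416786_at, differed by only -0.07 ± 0.30. Over the 34 genes 12 differences were positive and 22 negative, with a median of -0.09 against -0.06 for all tested genes. After quantile normalization the split was 17 and 17 and the medians were -0.00 and -0.01, while median centring, another rescaling, left 12 positive and a median of -0.07. Ligands had 9 of 10 negative differences as deposited and 8 of 10 after quantile normalization, and Smads 4 of 7 as deposited.

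Markers of several cell types differed along with these values. The summed signal of the 10 cardiomyocyte markers was 23370 to 41158 in the 541 hearts and 41310 to 49479 in the others. The ranges nearly met, at 41158 in WT 4 and 41310 in WT 2, and all sums here are as deposited, without rescaling the arrays. The cardiomyocyte sum was lowest in WT 3 and KO 4, which also had the 2 lowest Bmp7 signals. Red blood cell markers, all 8 Present on all 8 arrays, summed to 20848 to 33032 in the 541 hearts and 14452 to 25152 in the others. Of these, Alas2, a heme enzyme of red cells, was higher in the 541 hearts by 2.21 ± 0.31 log2 units (SE, limma adjusted p = 9.72e-10). Gata1, Ermap, Klf1 and Slc4a1 were also called higher, by 1.13 to 1.76. The signals of the groups overlapped for each of these genes. For Alas2, KO 2, which has another title number, had 436, above WT 4 at 259. The fit gave no weight to a gene's own spread, as stated for Bmp7. The globin genes Hba-x, Hbb-y and Hbb-bh1 were higher by 0.57, 0.20 and 0.30 but were not called (limma adjusted p = 0.085, 0.81 and 0.57). The macrophage receptor gene Csf1r was called higher, by 1.10 ± 0.26 (adjusted p = 0.0024). The sum of the 6 macrophage markers overlapped, however, at 90.8 to 266 in the 541 hearts and 104 to 209 in the others. WT 4, a 541 heart, was the lowest, and only 1 of the 6 was Present on all 8 arrays. The 8 markers of endocardium and endothelium summed to 1749 to 3108 in the 541 hearts against 2902 to 3989. The neural crest and neuronal sum was high in WT 3, KO 3 and KO 4, the 3 hearts low in Bmp7, and the branchial arch and skeletal muscle sum was highest in KO 3 and KO 4, at 772 and 634 against 160 to 418 in the others. Cushion mesenchyme markers summed to 6594 to 11144 in the 541 hearts and 6866 to 9799 in the others. The part of these sums, or of the Actb ratio, in the Bmp7, Bmp2 and Id4 values was not tested.

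**Figure D3:**
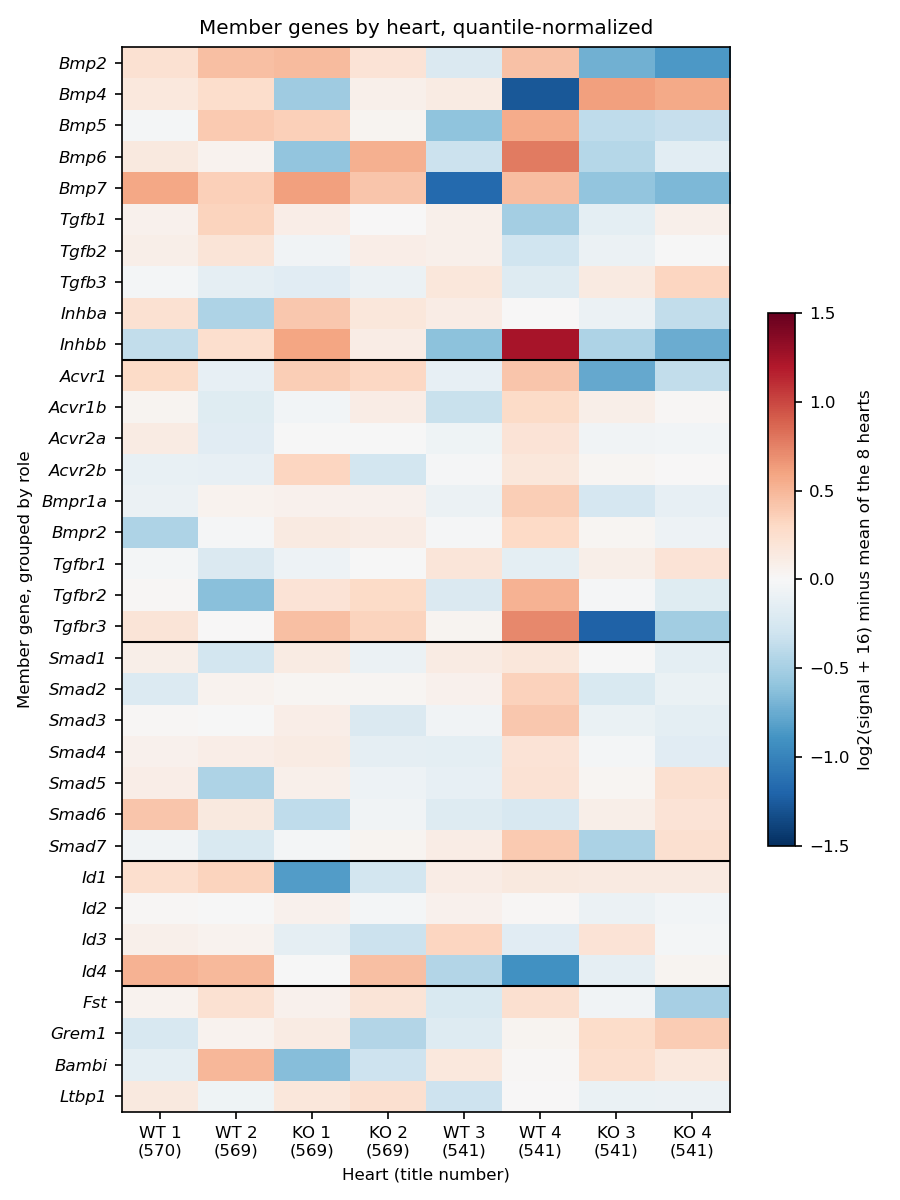
Heat map of the 34 tested genes (rows, grouped by role) in the 8 hearts (columns, by title number), as log2(signal + 16) after quantile normalization minus the gene's mean over the hearts; red is above and blue below that mean. Bmp2 and Bmp7 are below their means in WT 3, KO 3 and KO 4, Bmp4 is lowest in WT 4, and most receptor and Smad rows are pale.

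Probe sets of 1 gene did not always go the same way. In the comparison by title number the 5 tested probe sets of Bmpr1a ran from -0.55 to 0.18 log2 units and the 3 of Tgfbr1 from -0.54 to 0.08. Each extreme value at the low end came from a probe set with KO 3 as its lowest heart, 1425491_at for Bmpr1a with 289 and 1420894_at for Tgfbr1 with 12.1. Neither gene's brightest probe set differed by more than 0.17 log2 units in size, and none was called.

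Other genes of the pathway were taken from a list of 93, of which 74 were on the array and 53 were tested. None of the 53 was called for KO minus WT, and 3, or 5.66%, had an unadjusted p under 0.05, against 1.44% of all tested genes. All 3 were among the 22 tested genes that respond to BMP or TGF-beta (13.6%), of which 16 differences were positive, with a median of 0.21. Snai1 was Present only in WT 3, KO 3 and KO 4, and Cdkn2b only in WT 4, KO 3 and KO 4. Both passed the filter mainly through KO, where they were higher, so their part in these shares is no support for a difference. Snai1, a repressor of epithelial genes that acts in cushion formation, had 8.73, 0.698, 16.5 and 0.726 in WT and 9.86, 12.5, 41.7 and 40.7 in KO. Its log2 difference was 0.86 ± 0.26 (SE, limma adjusted p = 1.0), and WT 3 lay above KO 1 and KO 2. Without WT 3, KO 3 and KO 4 it was 0.51, but Snai1 was called Absent on every remaining array, so that value compares signals not above background.

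Tgfbi, a matrix protein induced by TGF-beta, had 589, 409, 438 and 146 in WT and 269.5, 768, 1304 and 615 in KO, a difference of 0.83 ± 0.38 log2 units (SE, limma adjusted p = 1.0). WT 4 was low and KO 3 high, so that the difference was 1.75 within the 541 hearts and -0.10 within the others. Without WT 3, KO 3 and KO 4 it was 0.45. The dimmer Tgfbi probe sets differed by 0.61 to 0.73, with an unadjusted limma p of 0.064 to 0.10. Cdkn2b, a cell cycle inhibitor induced by TGF-beta, was dim, at 0.472 to 9.85 in WT and 2.46 to 22.4 in KO. Its difference was 0.49 ± 0.23 (SE, limma adjusted p = 1.0), 0.13 within the other title numbers and -0.004 without WT 3, KO 3 and KO 4. KO 3 and KO 4, the 2 highest hearts for Snai1 and Cdkn2b, were among the 3 with high neural crest and neuronal sums, and the part of that in these values was not tested.

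All 11 tested genes on the list of other inhibitors and binding proteins had a positive KO minus WT difference, where 4987 of all 9126 tested genes did, but the differences were small, with a median of 0.13 and 0 called. Chrdl1, a chordin-like BMP antagonist, was the only 1 of the 53 whose groups did not overlap, where 0.34% of all tested genes did not, at 3.90 to 7.36 in WT and 7.57 to 24.05 in KO, with a difference of 0.40 ± 0.21 (SE, limma adjusted p = 1.0). KO 3 and KO 4 were highest, and without them and WT 3 the difference was 0.15. The probe set was Present on 4 of the 8 arrays, those of WT 3, KO 2, KO 3 and KO 4. It thus passed the filter through the group where it was higher, and the lack of overlap is no support for a difference. Sostdc1, an antagonist of BMP and Wnt ligands, followed Chrdl1 on this list with 0.33 ± 0.27. All 4 tested receptors and coreceptors had negative differences, led by Tdgf1, or Cripto, a coreceptor for Nodal, with -0.32 ± 0.26, and Eng, the endothelial coreceptor endoglin, with -0.22 ± 0.30. Pmepa1, a TGF-beta-induced inhibitor of the pathway, had 0.37 ± 0.33 and Smad9, a BMP-activated Smad, -0.10 ± 0.20, while Nodal had -0.20 ± 0.23 and Bmp1, a protease that cleaves chordin, 0.07 ± 0.26.

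In the comparison by title number, 0 of the 53 were called as deposited and 13, or 24.5%, had an unadjusted limma p under 0.05, against 12.1% of all tested genes. After quantile normalization these shares were 26.4% and 22.7%. Snai1 and Cdkn2b were each Present on 3 arrays, all of 541 hearts, so they entered the test only through the group where they were higher. Cfc1 was Present in WT 1, WT 2 and KO 2 but only in KO 4 of the 541 hearts. It thus passed the filter through the other hearts, where it was higher. The part of Snai1, Cdkn2b and Cfc1 in the count is no support for a difference. The lower ones in the 541 hearts were transcription factors of heart muscle, Tbx20 (-0.66 ± 0.22 log2 units), Nkx2-5 (-0.69 ± 0.27), Gata4 and Hand1 (-0.89 ± 0.30), with Cdkn1c, Tdgf1 and Cfc1. The higher ones were Tbx2 (0.69 ± 0.28), Tbx3 (0.74 ± 0.29) and Msx2 (0.56 ± 0.27), BMP-induced transcription factors of the atrioventricular canal, with Snai1, Cdkn2b and Sostdc1. After quantile normalization 3 of the 53 were called, Cdkn1c, a cell cycle inhibitor, at -0.66 ± 0.10 and Fkbp1a, which binds type I receptors, at -0.25 ± 0.05 on the lower side, and Trim33, a Smad4 regulator, at 0.51 ± 0.10 on the higher side. As deposited, dimmer probe sets of 2 genes were called, for Tbx20 at -1.13 ± 0.27 (adjusted p = 0.0027) and, in the other direction, for Skil, a Smad corepressor, at 0.79 ± 0.22 (adjusted p = 0.018). The Skil probe set, at 0.453 to 25.1, was Present in WT 3, WT 4, KO 3 and KO 4 but only in KO 2 of the others. It passed the filter through the group where it was higher, so its call is no support for a difference. The brightest Skil probe set differed by 0.37 ± 0.25 (limma adjusted p = 0.68). Tbx3 had 504, 567, 795 and 275 in WT and 290.4, 444, 1492 and 908 in KO. WT 3, KO 3 and KO 4 were its 3 highest hearts, where Bmp2 and Bmp7 had their 3 lowest. The same hearts were the 3 highest for Tbx2, at 63.7, 166 and 84.2, and for Msx2, at 60.6, 94.9 and 51.9. They were also the hearts with high neural crest and neuronal sums, and the part of those sums in these values was not tested.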

How the data were processed

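Per the file headers, the deposited intensity values are linear MAS5 signals, with 1 column per heart; the scaling target and MAS5 version are not given in the sources used here. Detection calls come from the authors' deposited export, which also holds a signed fold score (WT over KO) and a p-value per probe set, per the file headers. Per the file headers, the authors' quality report lists background intensity, the fraction of Present calls and the 5′ over 3′ ratio of control transcripts.

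Gene symbols came from the platform annotation, where 20393 of 22690 probe sets had 1 symbol. Control probe sets and those Present on fewer than 3 of the 8 arrays were left out. The rest were fitted in R 4.3.3 with limma 3.58.1 (lmFit, then eBayes with a trend on brightness; statmod 1.5.0) on log2(signal + 16), without rescaling the arrays. Genes were called at a Benjamini-Hochberg adjusted p under 0.05 over 16292 probe sets, and each gene was read through the brightest of its tested probe sets by mean log2 signal. The script was tested on simulated data. An array has no read depth, so the number of hearts limits the precision, and log intensity over log background was 1.49 to 1.59.

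Values in full are given for the 2 members of each role with the highest mean signal, the 8 with the smallest p by genotype, the 6 by title number, and members whose probe sets disagreed in sign. Other pathway genes are named where the unadjusted p was under 0.05, otherwise the 2 per list with the smallest. Further members with values were chosen after the values were seen. The members, lists and tests were chosen with earlier results of these data known. Alternatives were other scalings, pseudocounts, filters, probe set rules, title number as a block, an unequal-variance test on linear signals and leaving out hearts. The interaction, the fit without WT 3, KO 3 and KO 4, and part of the fits on the mean over probe sets were added after seeing the data.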

Additional observations from a re-analysis of the deposited data

Results flagged for a closer look

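In 3 of 68 groups of 4 hearts (34 genes in WT and KO), 1 heart stood apart from the other 3 by Dixon's criterion on log2(signal + 16), where chance gives about 1 in 20 groups, or 3.4 of 68. Bmp4 in WT 4 had a signal of 47.3, against 189 to 223 in the other WT hearts. Bmp5 in WT 3 had a signal of 114, against 193 to 211. Smad7 in WT 2 had a signal of 421, against 583 to 621.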

How the results depend on the processing

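For KO minus WT, 0 of the tested pathway genes were called under each of 23 alternatives, and their median difference ran from -0.16 to 0.06 log2 units, within the spread between hearts. The count of probe sets called over the whole array, 0 as reported, was 2 with Present required on all 8 arrays, 40 with title number as a fixed block, 60 within title number 541, 3 within 569, 3 without WT 3, KO 3 and KO 4 together, and 0 to 72 when 1 heart was left out (72 without WT 3 and 30 without KO 1). Signs turned for Bmp4 (-0.067 to 0.72 with 1 heart left out, negative without WT 4, and -0.41 within 569), Tgfbr3 (0.43 within 569 and 0.11 without WT 3, KO 3 and KO 4), Grem1 (-0.31 and -0.18 in the same 2 fits), Id1 (0.12 within 541) and Bambi (0.18 within 541). For 541 minus the other title numbers, the 1 pathway gene called became 0 with quantile normalization, with median centring, with no detection filter and with the mean over probe sets. Leaving out 1 heart gave 0 to 2, namely 0 without WT 1, WT 3, KO 2 or KO 4, and Bmp7 with Id4 without KO 1. The adjusted p of Bmp7 was 0.089, 0.063, 0.089 and 0.18 in those 4 settings, and 0.18, 0.49, 0.13 and 0.22 without WT 1, WT 3, KO 2 and KO 4; without KO 1 that of Id4 was 0.022. Probe sets called over the array, 480 as reported, numbered 155 with no detection filter, 266 with Present on all 8 arrays and 130 to 776 with 1 heart left out, the extremes without WT 3 and without WT 4. Over all genes the calls were 205 higher and 119 lower as deposited and 163 and 144 after quantile normalization. The cause of these shifts was not tested. Dim genes such as Smad3, Grem1, Inhba and Inhbb are limited by signal over background.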
